A study of Homo sapiens with 6 samples.

Results

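The heat shock proteins and their J-domain cochaperones were followed as 68 of the 11658 protein-coding genes listed for MKN45 cells. MKN45 is an established line from a human gastric cancer. Members were chosen by name, as genes whose symbols begin with HSPA, HSPB, HSPD, HSPE, HSPH, HSP90, DNAJ or BAG and a number. The chaperones HSPA5 and HSP90B1 of the endoplasmic reticulum were left out. All cells had been transfected with a short hairpin RNA (shRNA), which a cell turns into a small RNA that lowers a matching transcript. In 3 libraries the shRNA was aimed at the transcript tcons_00001221, and 3 libraries carried a control shRNA. The labels do not say whether cells were pooled or cloned, nor whether replicates came from separate cultures. The p-values therefore cover only library-to-library spread, which may be technical. The level of tcons_00001221 was not analysed here, so groups are named by their labels alone. In bulk RNA, fewer cells of a kind and less RNA per cell cannot be told apart.

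Molecular chaperones help other proteins to fold, to cross membranes and to stay soluble. HSP70 proteins bind and release unfolded stretches in a cycle driven by ATP. J-domain proteins bring them clients and start ATP hydrolysis, and nucleotide exchange factors such as the BAG proteins reset the cycle. HSP90 acts later, on kinases, receptors and other nearly folded clients, while small heat shock proteins hold unfolded proteins without using ATP. When unfolded proteins build up in the cytosol, the transcription factor HSF1 binds heat shock elements, repeats of GAA in alternating orientation, and raises many of these genes.

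Levels are in FPKM, a measure of fragments that is scaled for transcript length and for library size. Ranks and shares between genes are approximate: HSPA8 measured 64.7 FPKM in control replicate 1, where its transcript HSPA8-010 alone measured 113 FPKM. Between libraries no further scaling was applied in the main test. The median log2 change (target minus control) over all tested genes was 0.03, and 0.004 after median rescaling. The sum over all genes ranged from 186226 to 192101 FPKM in the 6 libraries, and the members held 0.792% to 0.816% of that sum. Read depth is unknown. A test was run on log2(FPKM + 1) for genes with at least 1 FPKM in at least 3 libraries. Of the 68 members 64 passed this filter, and HSPA2, HSPA6, DNAJC27 and HSPBAP1 did not. Changes and fold intervals are of FPKM + 1, so at low levels they are smaller than FPKM ratios. For HSPA1L the ratio of means was 1.24 and the fitted fold 1.14. The epithelial markers measured ran from 0.66 FPKM (TFF1) to 173 FPKM (KRT7) in control replicate 1, with KRT18 at 61.3 FPKM and EPCAM at 7.14 FPKM. Only 7 of 12 markers were among the genes analysed here, CDH1 and KRT19 not among them. The summed epithelial markers ranged from 369 to 378 FPKM in control and from 339 to 350 FPKM in target libraries. In that sum, CLDN4 measured 10.96, 10.03 and 10.63 FPKM in control and 10.55, 0.059 and 0.175 FPKM in target libraries. For CLDN4, target replicate 1 thus lay with the controls. The summed mesenchymal markers, 6 of 7 of them measured and led by COL5A1 and VIM, ranged from 493 to 513 FPKM and from 437 to 452 FPKM. The part of these shifts in the results below was not tested.

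No member passed the test between target and control libraries. With limma and Benjamini-Hochberg adjustment at 0.05, 0 of the 64 tested members were higher and 0 were lower, where 0.749% of all 10675 tested genes passed (0.534% higher and 0.215% lower). At an unadjusted p under 0.05, 13 members were higher and 3 lower, which is 25% of them, where 16.1% of all tested genes were past that limit (11.4% higher and 4.71% lower). The groups did not overlap in 23 members, 17 higher and 6 lower, or 35.9% of them, where 23.7% of all tested genes did not overlap (16.6% higher and 7.18% lower). The median log2 change of the members was 0.03, the same to 2 decimals as the median of 0.03 over all tested genes. The 95% interval of the change lay within 2-fold in either direction for 63 of 64 members and within 1.5-fold for 60, where 89.4% of all tested genes lay within 1.5-fold. The exception at 2-fold was HSPE1-MOB4, a readthrough model.

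**Figure D1:**
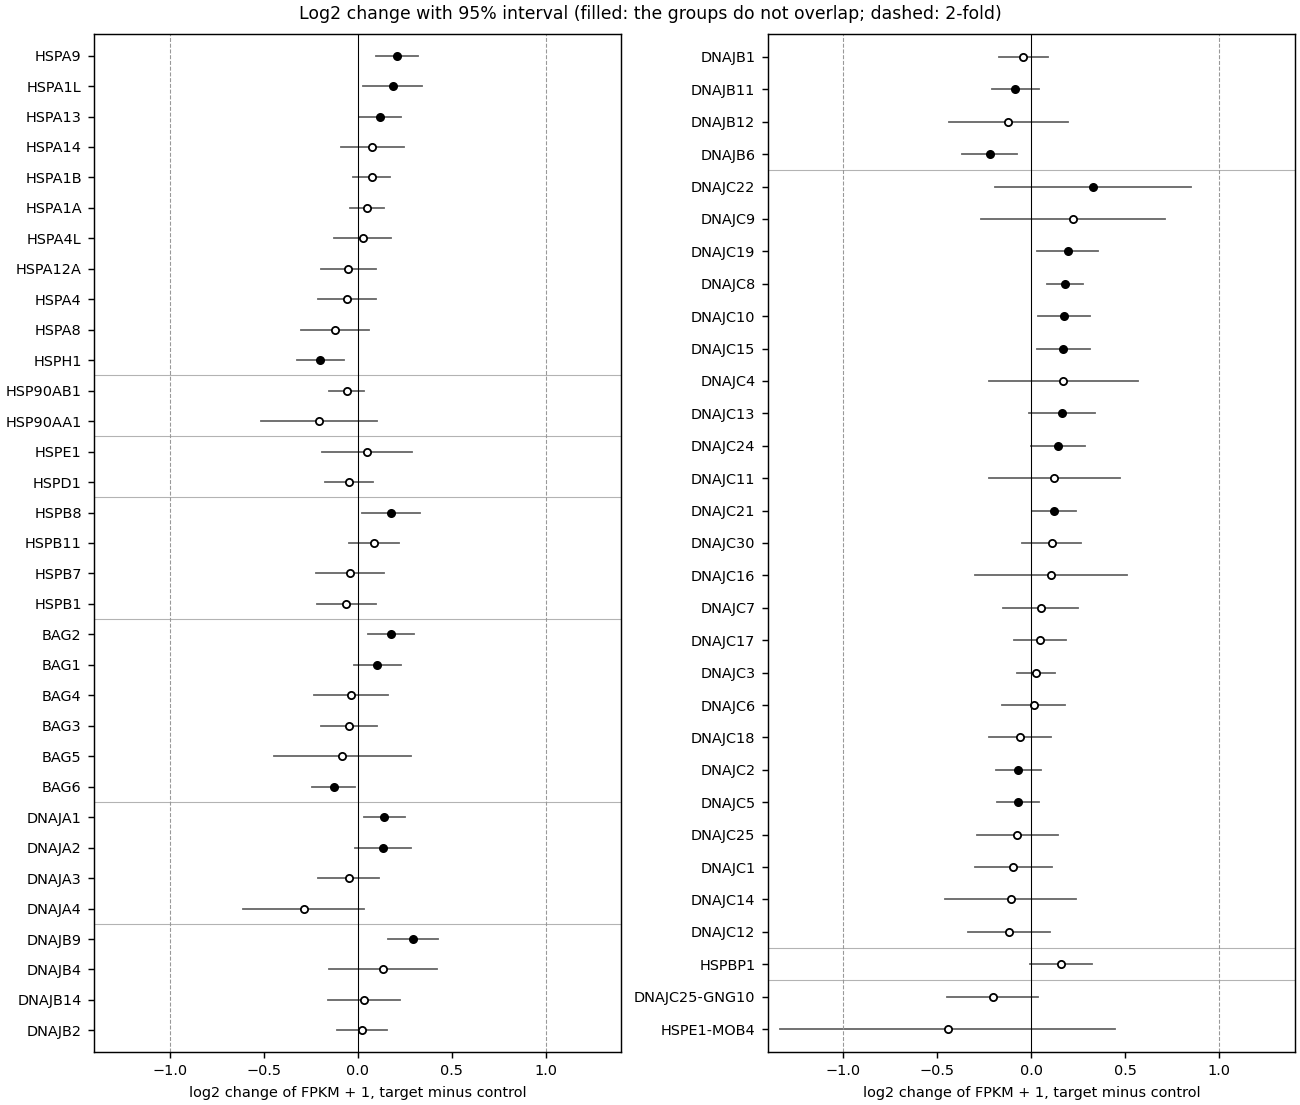
Log2 change of FPKM + 1 (target minus control, x axis) for the 64 tested members, grouped by family between grey lines. Points are fitted changes, bars are 95% intervals from limma, filled points mark members whose groups did not overlap, and dashed lines mark 2-fold. All points lie between -0.45 and 0.33.

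The families differed widely in level and little between groups. HSP90AB1, the constitutive cytosolic HSP90, was the most abundant member, and the HSP90 pair made up 33.6% of the summed FPKM of all members. The HSP70 family made up 24.5%, the DNAJC family 12.6%, the small heat shock proteins 6.92%, the mitochondrial chaperonin pair 6.34%, the BAG genes 5.93%, DNAJA 4.52% and DNAJB 4.51%. The sum over all members was 1526 ± 6.76 FPKM in control and 1515 ± 7.11 FPKM in target libraries (SD, n = 3 per group). The HSP70 sum was 366 ± 6.33 and 380 ± 3.99 FPKM, and the HSP90 sum 526 ± 11.9 and 495 ± 7.87 FPKM. Neither family's library sums overlapped between the groups. HSP70 libraries ranged from 360 to 372 FPKM in controls and from 378 to 385 in target libraries, and HSP90 libraries from 512 to 536 and from 486 to 502 FPKM. The DNAJA sum (66.3 ± 1.74 and 71.2 ± 2.54 FPKM) and the DNAJC sum (188 ± 2.61 and 196 ± 4.25 FPKM) also did not overlap. Single abundant genes weighed on these sums: HSPA9 had means of 83.9 and 97.3 FPKM, and DNAJA1 of 43.0 and 47.5 FPKM. Single libraries weighed on them too. In control replicate 3 HSP90AA1 measured 110 FPKM, its highest value, while HSP90AB1 was at its lowest among the controls, at 418 FPKM. In the DNAJC sum, DNAJC9 measured 15.2 FPKM in target replicate 2 and at most 9.72 FPKM in any other library. Of the 11 tested HSP70 members 7 had a positive and 4 a negative log2 change, and of the 4 DNAJA members 2 and 2. Sums were not tested, and no share over all genes is available to set beside their lack of overlap.

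**Figure D2:**
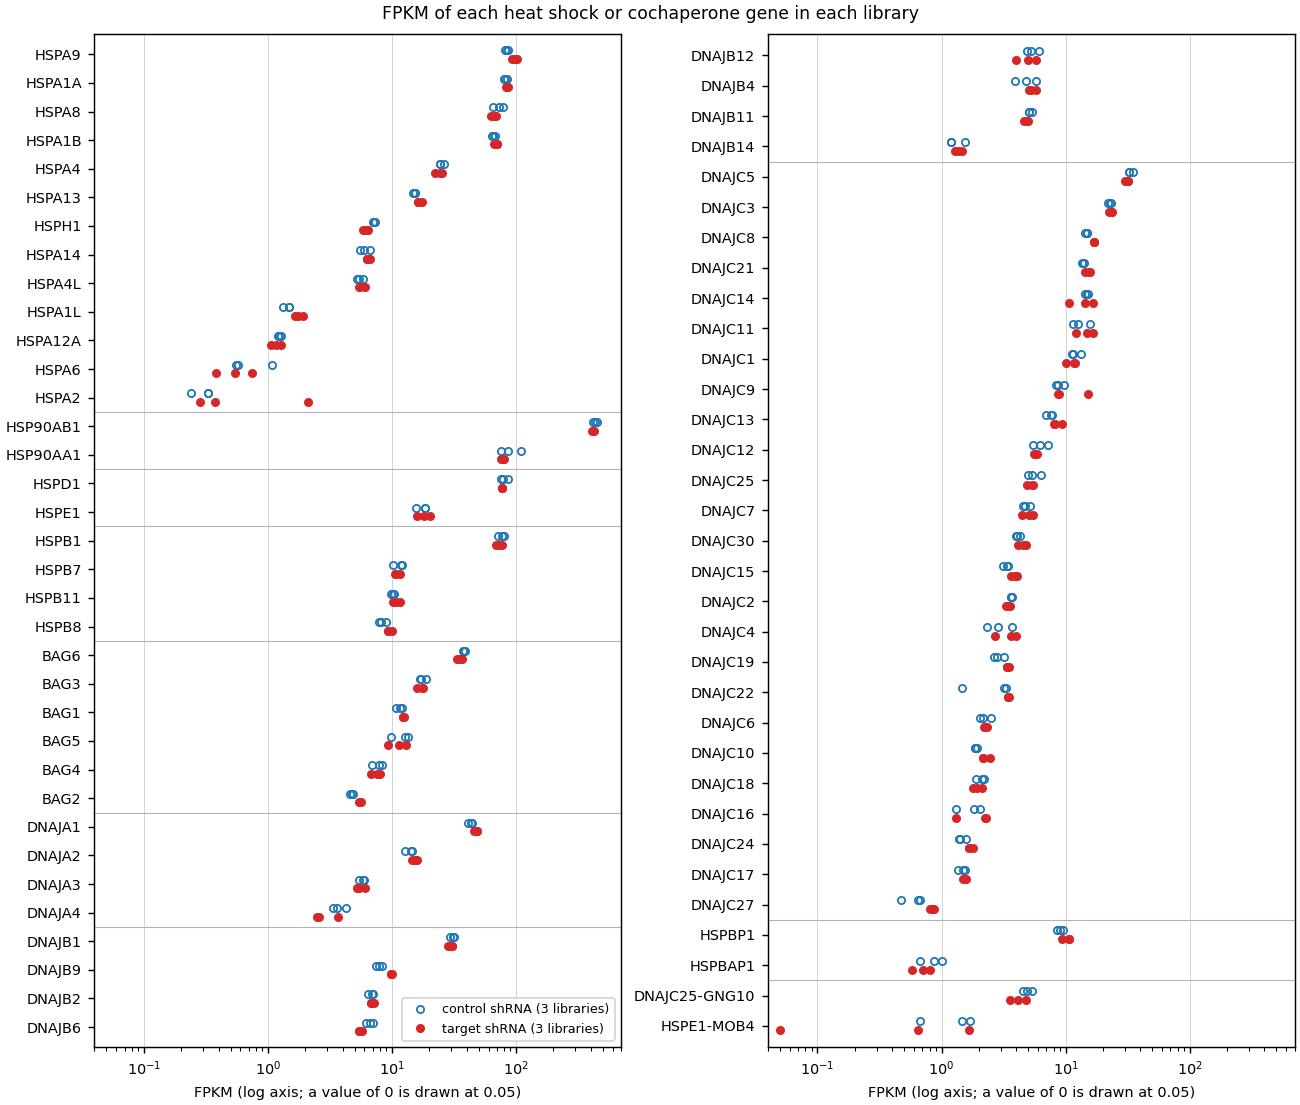
FPKM (x axis, logarithmic) of all 68 members in the 6 libraries, ordered by family and mean level. Open blue points are the 3 control libraries and filled red points the 3 target libraries. HSP90AB1 stands highest, from 409 to 449 FPKM, and HSPE1-MOB4 is listed at 0 in 1 target library.

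Among the ATP-driven HSP70 chaperones, HSPA9, the mitochondrial HSP70 that pulls proteins through the inner membrane and folds them, had the smallest p. The gene occupies chromosome 5 from 137890571 to 137911133 on the minus strand (GRCh37). It measured 84.5, 86.0 and 81.2 FPKM in control libraries and 98.1, 92.7 and 101 FPKM in target libraries. Every target library lay above every control library. The log2 change was 0.21 with an SE of 0.05, and limma's adjusted p was 0.124. HSPH1, counted in this family and next by p, is given with the exchange factors. Higher target values were also measured for HSPA1L, a testis-enriched relative next to HSPA1A, at 1.44 ± 0.090 and 1.77 ± 0.146 FPKM, and HSPA13, a microsomal HSP70, at 15.2 ± 0.275 and 16.6 ± 0.685 FPKM. Neither overlapped between groups, and neither passed (limma's adjusted p of 0.257 and 0.286).

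HSPA1A and HSPA1B, the stress-inducible cytosolic HSP70 genes, sit side by side on chromosome 6, at 31783241 to 31785723 and 31795512 to 31798032 (plus strand, GRCh37). They encode nearly the same protein, so the division of reads between them is uncertain. HSPA1A measured 81.4, 79.6 and 84.4 FPKM in control and 83.5, 85.3 and 85.3 FPKM in target libraries. HSPA1B measured 65.7, 63.6 and 67.2 FPKM and 66.7, 70.2 and 70.4 FPKM. In both genes the groups overlapped. The main HSPA1A transcript, HSPA1A-001, did not overlap, at 76.4, 76.7 and 77.1 FPKM in control and 81.9, 83.1 and 80.7 FPKM in target libraries. Its log2 change was 0.09 (adjusted p of 0.689 by limma). The minor HSPA1A-002 went the other way with overlap, at 6.61 ± 2.90 and 3.64 ± 2.04 FPKM. The 2 genes summed to 147 ± 4.17 and 154 ± 3.06 FPKM, with a log2 change of 0.06 (adjusted p of 0.471 by limma). The 95% interval of that change ran from 0.981-fold to 1.11-fold, so larger differences lay outside it. HSPA8, the constitutive cytosolic HSP70, measured 64.7, 72.8 and 78.1 FPKM in control and 66.0, 68.6 and 63.1 FPKM in target libraries, and the groups overlapped (adjusted p of 0.490 by limma). HSPA6, a strictly heat-induced relative, was at 0.56, 0.57 and 1.08 FPKM in control and 0.38, 0.54 and 0.74 FPKM in target libraries.

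The exchange factors had values on both sides. HSPH1, the HSP110 that resets cytosolic HSP70, measured 7.04, 7.36 and 7.13 FPKM in control and 5.84, 6.18 and 6.36 FPKM in target libraries, without overlap. Its log2 change was -0.20 with an SE of 0.05 (adjusted p of 0.168 by limma). BAG2, which restrains the ubiquitin ligase of the HSP70 cycle, measured 4.89, 4.59 and 4.79 FPKM and 5.37, 5.67 and 5.47 FPKM, also without overlap. Its log2 change was 0.18 (adjusted p of 0.206 by limma). BAG6, which shields hydrophobic segments of mislocalised proteins, measured 38.2 ± 0.657 and 34.9 ± 1.77 FPKM, and BAG1 11.5 ± 0.641 and 12.4 ± 0.152 FPKM. Those groups did not overlap either (limma's adjusted p of 0.279 and 0.391). BAG3, the heat-induced partner of small heat shock proteins, overlapped at 17.6 ± 1.09 and 17.02 ± 0.881 FPKM, and so did BAG4 and BAG5. HSPBP1, an exchange factor that the name rule picks up through its HSPB letters, measured 9.04 ± 0.435 and 10.2 ± 0.789 FPKM (adjusted p of 0.323 by limma). HSPBAP1, also picked up by its letters, ranged from 0.58 to 1.02 FPKM and was not tested.

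HSP90AB1 measured 436, 449 and 418 FPKM in control and 422, 409 and 420 FPKM in target libraries. The groups overlapped, and the 95% interval of the change ran from 0.900-fold to 1.02-fold (adjusted p of 0.504 by limma). HSP90AA1, the inducible cytosolic HSP90, measured 76.1, 86.5 and 110 FPKM in control and 79.4, 77.8 and 76.3 FPKM in target libraries. Control replicate 3 stood alone above 100 FPKM, and the other control libraries overlapped the target libraries. The log2 change was -0.21 with an SE of 0.13 (adjusted p of 0.487 by limma), and -0.06 without control replicate 3 or -0.32 without control replicate 1.

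HSPD1 and HSPE1 form the mitochondrial chaperonin and its lid. HSPD1 (chromosome 2, 198351305 to 198381461, minus strand) and HSPE1 (198364718 to 198368181, plus strand) overlap on opposite strands, and strandedness is not given, so reads of the overlap cannot be told apart. HSPD1 measured 80.0 ± 5.32 and 77.4 ± 0.151 FPKM and HSPE1 17.4 ± 1.62 and 18.1 ± 2.04 FPKM. Both overlapped between groups (limma's adjusted p of 0.705 and 0.842).

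Of the small heat shock proteins, HSPB1 (Hsp27), an abundant holdase, measured 76.2 ± 4.65 and 73.0 ± 4.57 FPKM (adjusted p of 0.686 by limma). HSPB8, which works with BAG3 in the disposal of misfolded proteins, measured 8.20, 8.998 and 7.86 FPKM in control and 10.1, 9.30 and 9.30 FPKM in target libraries. Every target library was higher, with a log2 change of 0.18 (adjusted p of 0.270 by limma). HSPB7 and HSPB11, the latter a part of ciliary transport, measured 11.4 ± 1.03 and 10.996 ± 0.581 FPKM and 10.1 ± 0.238 and 10.8 ± 0.648 FPKM, and both overlapped between groups.

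The heat-inducible members plotted below (14 genes that HSF1 is known to raise, grouped after their values were seen) had no common direction. Of the 13 tested, 5 had a positive and 8 a negative log2 change, with a median of -0.05 and a range from -0.21 to 0.18. Of all tested genes 61.2% had a positive change, and their median was 0.03. The set includes HSP90AB1 and HSPA8, described above as constitutive. Both had a negative log2 change (-0.06 and -0.12), so the split of directions depends in part on counting them. The groups did not overlap in 3 of them, HSPB8 and DNAJA1 as higher and HSPH1 as lower, where 23.7% of all tested genes did not overlap. HSF1 itself measured 8.09 ± 1.61 and 8.23 ± 0.421 FPKM (adjusted p of 0.911 by limma).

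**Figure D3:**
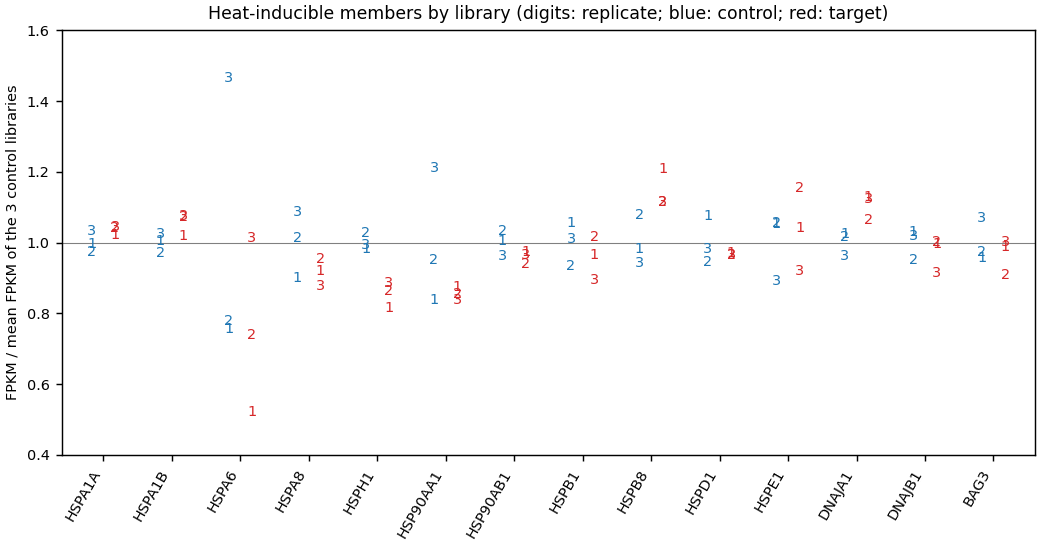
FPKM of 14 heat-inducible members divided by the mean of the 3 control libraries (y axis, from 0.4). Digits are replicate numbers, blue for control and red for target libraries. HSPB8 and DNAJA1 target libraries lie above and HSPH1 target libraries below their controls, control replicate 3 stands apart in HSP90AA1, and HSPA6, at or under 1.08 FPKM, spreads most.

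The promoters of the members were searched for the repeats that HSF1 reads. RefSeq windows of 300 bases (250 before to 50 after a gene's start, GRCh38.p14) were matched for 63 of 68 members, in 87 windows. They were searched on both strands for 3 alternating units, GAANNTTCNNGAA or its complement TTCNNGAANNTTC, and for the shorter GAANNTTC or TTCNNGAA, which lie within the longer motif. The 3-unit motif was found in 7 members, 11.1% of those matched, and in 8.05% of their windows, where 0.490% of all 35116 windows held it. The members were HSPA6, HSPA8, HSP90AA1, HSP90AB1, HSPD1, DNAJA1 and DNAJB6. In HSP90AB1 and HSPD1 the motif lay in the window nearest the start of a minor transcript, HSP90AB1-005 and HSPD1-001. The windows nearest the main transcripts, HSP90AB1-003 and HSPD1-201, held no 3-unit motif. The shorter motif was found in 20 of 63 members, so most held neither, and in 24.1% of their windows, where 13.5% of all windows held it. The windows below are shown because they carry the motif and belong to members with different values: HSP90AA1 and HSPA8 with overlapping groups, DNAJA1 with higher target values, DNAJB6 with lower ones, and HSPA1A with only the shorter motif. Capitals mark the 3-unit motif, or for HSPA1A the shorter motif.
HSP90AA1, chr14:102086995-102087294, minus strand: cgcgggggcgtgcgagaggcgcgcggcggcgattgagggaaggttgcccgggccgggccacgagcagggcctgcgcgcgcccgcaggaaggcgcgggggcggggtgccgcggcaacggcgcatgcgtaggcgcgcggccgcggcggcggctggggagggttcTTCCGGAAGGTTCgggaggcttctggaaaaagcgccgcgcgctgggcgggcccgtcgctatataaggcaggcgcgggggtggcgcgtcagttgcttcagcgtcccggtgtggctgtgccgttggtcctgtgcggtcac
HSPA8, chr11:123062087-123062386, minus strand: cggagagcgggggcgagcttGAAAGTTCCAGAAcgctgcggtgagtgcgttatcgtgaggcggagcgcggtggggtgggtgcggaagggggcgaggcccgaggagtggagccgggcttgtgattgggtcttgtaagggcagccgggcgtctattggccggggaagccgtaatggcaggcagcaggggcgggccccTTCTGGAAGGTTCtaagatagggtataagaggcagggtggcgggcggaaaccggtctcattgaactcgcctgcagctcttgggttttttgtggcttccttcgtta
DNAJA1, chr9:33025023-33025322, plus strand: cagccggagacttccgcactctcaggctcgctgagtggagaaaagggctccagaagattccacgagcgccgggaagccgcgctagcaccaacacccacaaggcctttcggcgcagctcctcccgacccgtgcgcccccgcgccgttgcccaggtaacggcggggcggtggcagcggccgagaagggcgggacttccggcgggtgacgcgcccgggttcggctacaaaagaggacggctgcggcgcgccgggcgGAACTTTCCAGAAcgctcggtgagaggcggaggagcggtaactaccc
DNAJB6, chr7:157336754-157337053, plus strand: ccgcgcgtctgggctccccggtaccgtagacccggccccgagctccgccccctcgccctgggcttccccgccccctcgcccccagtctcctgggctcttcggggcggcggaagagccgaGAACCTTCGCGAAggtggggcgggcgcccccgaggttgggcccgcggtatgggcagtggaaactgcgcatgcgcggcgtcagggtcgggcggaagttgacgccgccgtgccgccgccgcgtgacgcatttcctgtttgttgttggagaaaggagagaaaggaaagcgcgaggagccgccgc
HSPA1A, chr6:31815293-31815592, plus strand: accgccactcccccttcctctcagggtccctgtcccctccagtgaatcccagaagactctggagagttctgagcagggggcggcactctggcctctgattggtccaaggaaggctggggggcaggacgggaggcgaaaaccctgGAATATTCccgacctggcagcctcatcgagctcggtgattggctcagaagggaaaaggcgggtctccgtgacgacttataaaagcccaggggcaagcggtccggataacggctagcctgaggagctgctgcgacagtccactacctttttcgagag
The motif began 88 bases before the start in HSP90AA1, 131 before it in DNAJB6 and 106 before it in HSPA1A. In DNAJA1 it began at base 4 counted from the RefSeq start, which lies 62 bases from the annotated start of DNAJA1-001. HSPA8 held it once from 230 bases before the start and once ending 43 bases before it. A match is a description of letters and shows no binding.

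Among the type A J-domain proteins, DNAJA1, a general partner of cytosolic HSP70, measured 44.0, 43.6 and 41.3 FPKM in control and 48.5, 45.7 and 48.3 FPKM in target libraries. DNAJA2, its close relative, measured 14.5, 14.2 and 12.8 FPKM and 15.4, 14.5 and 15.8 FPKM. In both genes every target library was higher, by narrow margins, but the only DNAJA2 transcript overlapped between groups. The log2 changes were 0.14 and 0.13 (adjusted p of 0.231 and 0.351 by limma), and that of DNAJA2 was 0.08 without control replicate 3. DNAJA3, the mitochondrial member, measured 5.77 ± 0.264 and 5.56 ± 0.431 FPKM, and DNAJA4 3.74 ± 0.480 and 2.90 ± 0.644 FPKM, both with overlap.

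DNAJB9 had the smallest p of all members. It encodes ERdj4, a J-domain protein of the endoplasmic reticulum that is induced when unfolded proteins build up there, and occupies chromosome 7 from 108210012 to 108215294 on the plus strand (GRCh37). It measured 7.41, 8.37 and 7.92 FPKM in control and 9.78, 10.1 and 9.89 FPKM in target libraries. Every target library lay above every control library, and the log2 change was 0.30 with an SE of 0.06, with a 95% interval from 1.12-fold to 1.35-fold. After adjustment over all genes limma's p was 0.0937, above the threshold. DNAJB6, which keeps aggregation-prone proteins soluble, measured 6.14, 6.98 and 6.66 FPKM in control and 5.44, 5.38 and 5.70 FPKM in target libraries. Every target library was lower, with a log2 change of -0.22 and an SE of 0.06 (adjusted p of 0.183 by limma). DNAJB11, an ER partner of HSPA5, also did not overlap, at 5.17 ± 0.130 and 4.81 ± 0.190 FPKM (adjusted p of 0.473 by limma). DNAJB1, the main heat-induced J-domain protein, measured 30.7 ± 1.29 and 29.8 ± 1.49 FPKM and DNAJB2 6.79 ± 0.363 and 6.92 ± 0.197 FPKM, both with overlap.

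The DNAJC proteins share only the J domain, which ties HSP70 to very different places. Of 24 tested, 17 had a positive log2 change, where 61.2% of all tested genes did. The groups did not overlap in 10, or 41.7%, with 8 higher and 2 lower, where 23.7% of all tested genes did not overlap (16.6% higher and 7.18% lower). DNAJC8, which is found with the spliceosome, had the smallest p of the family. It measured 14.99, 14.9 and 14.3 FPKM in control and 16.8 FPKM in each target library. The log2 change was 0.18 with an SE of 0.04 (adjusted p of 0.132 by limma). The most abundant members of the family were DNAJC5, a protein of secretory vesicles (33.05 ± 1.41 and 31.4 ± 0.898 FPKM, lower without overlap, adjusted p of 0.512 by limma), and DNAJC3, an ER cochaperone and kinase inhibitor (22.7 ± 0.577 and 23.1 ± 0.635 FPKM, with overlap).

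DNAJC15 and DNAJC19, J-domain proteins of the motor that imports proteins into mitochondria with HSPA9, measured 3.32 ± 0.142 and 3.86 ± 0.207 FPKM and 2.87 ± 0.278 and 3.42 ± 0.076 FPKM. Both lay higher in every target library, with log2 changes of 0.17 and 0.19, and neither passed (limma's adjusted p of 0.257 and 0.260). DNAJC10, an ER reductase of disulfide bonds, measured 1.89 ± 0.024 and 2.26 ± 0.157 FPKM. DNAJC21, which matures the large ribosomal subunit, measured 13.9 ± 0.334 and 15.1 ± 0.632 FPKM. DNAJC13, a protein of endosomes, measured 7.48 ± 0.443 and 8.49 ± 0.705 FPKM. DNAJC24, of diphthamide synthesis, measured 1.46 ± 0.106 and 1.71 ± 0.078 FPKM. These 4 had no overlap and adjusted p by limma of 0.246, 0.299, 0.345 and 0.310. DNAJC2, which works at the ribosome, was the other member lower without overlap, at 3.65 ± 0.017 and 3.43 ± 0.109 FPKM. DNAJC22 had the largest positive log2 change of the family, 0.33, but 1 control library stood apart: it measured 1.46, 3.20 and 3.33 FPKM in control and 3.43, 3.52 and 3.43 FPKM in target libraries. Without control replicate 1 its change was 0.06.

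The remaining tested members overlapped between groups. HSPA4, an HSP110 relative, measured 25.1 ± 1.12 and 24.1 ± 1.66 FPKM, and HSPA14, an HSP70 bound to ribosomes, 6.03 ± 0.566 and 6.41 ± 0.188 FPKM. DNAJC12, a partner of aromatic amino acid hydroxylases, measured 6.30 ± 0.864 and 5.69 ± 0.159 FPKM, and the readthrough model DNAJC25-GNG10 4.93 ± 0.428 and 4.16 ± 0.596 FPKM (adjusted p of 0.382 by limma). Overlap was also found in HSPA4L, HSPA12A, DNAJB4, DNAJB12, DNAJB14, DNAJC1, DNAJC4, DNAJC6, DNAJC7, DNAJC9, DNAJC11, DNAJC14, DNAJC16, DNAJC17, DNAJC18, DNAJC25 and DNAJC30, with mean levels over the 6 libraries from 1.20 to 14.3 FPKM. DNAJC27, below the filter and not tested, measured 0.47, 0.64 and 0.67 FPKM in control and 0.84, 0.87 and 0.81 FPKM in target libraries.

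By compartment (grouped after values were seen), 3 of 8 mitochondrial members had groups without overlap, all higher: HSPA9, DNAJC15 and DNAJC19. Over all tested genes 23.7% had no overlap (16.6% higher and 7.18% lower), and over all tested members 35.9%. DNAJC30, DNAJC11, HSPE1, HSPD1 and DNAJA3 overlapped. CLPB, a mitochondrial partner outside the name rule, was lower without overlap. Of 11 members of the endoplasmic reticulum 4 had no overlap, against the same 23.7% and 35.9%: DNAJB9, DNAJC10 and HSPA13 as higher, DNAJB11 as lower. Beside them, HSPA5, the ER HSP70, measured 219 ± 4.599 and 231 ± 1.47 FPKM without overlap (adjusted p of 0.290 by limma). HSP90B1, the ER HSP90, measured 163 ± 4.57 and 164 ± 3.31 FPKM with overlap (0.906).

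Of 32 chaperone partners listed outside the name rule (heat shock factors, cochaperones of HSP70 and HSP90, mitochondrial partners and J-domain proteins named otherwise), 29 were tested. By limma 0 were higher and 0 were lower, with 4 at an unadjusted p under 0.05, or 13.8% of them, where 16.1% of all tested genes were past that limit. The groups did not overlap in 20.7% of them, where 23.7% of all tested genes did not, and the median log2 change was 0.00. CLPB, a mitochondrial disaggregase, measured 5.96 ± 0.350 and 4.98 ± 0.347 FPKM, CDC37L1, an HSP90 cochaperone, 2.74 ± 0.228 and 3.30 ± 0.291, SEC63, a J-domain protein of the ER channel, 11.9 ± 0.303 and 12.96 ± 0.442, and TTC4, an HSP90 cochaperone, 5.56 ± 0.341 and 6.21 ± 0.104 FPKM. These 4 had the smallest p, with adjusted p by limma of 0.219, 0.280, 0.302 and 0.306. The abundant partners ST13 (58.3 ± 1.39 and 56.0 ± 2.77 FPKM) and STIP1, which passes clients from HSP70 to HSP90 (25.0 ± 2.46 and 23.7 ± 1.03 FPKM), overlapped between groups.

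The transcript table divides the members into 166 transcripts, of which 126 were tested. By limma 0 passed, where 0.287% of all 20890 tested transcripts did, and 10 had an unadjusted p under 0.05, 5 higher and 5 lower. That is 7.94% of them, where 7.40% of all tested transcripts were past that limit. The groups did not overlap in 32 of the tested member transcripts, or 25.4%, where 15.2% of all tested transcripts did not overlap. The smallest p belonged to DNAJA4-002, a transcript of 397 codons in GENCODE 29. It measured 4.73, 2.58 and 6.01 FPKM in control and 0.88, 0.43 and 1.87 FPKM in target libraries, without overlap. The log2 change of FPKM + 1 was -1.41 with an SE of 0.37 (adjusted p of 0.488 by limma), and the ratio of mean FPKM was 0.238. The longer DNAJA4-001, of 426 codons, measured 1.58, 4.19 and 1.29 FPKM and 5.81, 3.06 and 1.997 FPKM, with overlap. In DNAJC12, the shorter DNAJC12-002 of 107 codons measured 3.89 ± 0.641 and 2.16 ± 0.428 FPKM (adjusted p of 0.503 by limma), while DNAJC12-001 of 198 codons measured 7.51 ± 1.51 and 7.71 ± 0.507 FPKM. HSPH1-002 and HSPH1-001 were both lower without overlap, at 13.5 ± 0.279 and 11.2 ± 1.07 FPKM and at 1.55 ± 0.397 and 0.681 ± 0.353 FPKM (adjusted p of 0.649 and 0.645 by limma). The only DNAJB9 transcript and DNAJC8-001 followed their genes, with log2 changes of 0.29 and 0.19 (adjusted p of 0.542 and 0.527 by limma). Some others did not. HSPA9-001, the main HSPA9 transcript, measured 117, 97.0 and 112 FPKM in control and 113, 121 and 126 FPKM in target libraries, with overlap. Its log2 change was 0.14 (adjusted p of 0.775 by limma). The only DNAJA2 transcript measured 23.0, 22.8 and 20.6 FPKM and 24.7, 16.9 and 25.5 FPKM, also with overlap. Its log2 change was -0.007 (adjusted p of 0.997 by limma). DNAJC13-001 overlapped as well, unlike its gene. The reverse was also seen, with transcripts apart where their genes overlapped. Among these were HSPA1A-001 and HSPA14-005 as higher, and HSPA14-004 and HSP90AB1-003 as lower. None passed (limma's adjusted p of 0.689, 0.643, 0.733 and 0.715).

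In HSP90AA1 and HSPD1 the split between transcripts differed in 1 library. HSP90AA1-001, of 854 codons, measured 27.3 FPKM in control replicate 3 and at most 0.29 FPKM in the other 5 libraries. Its annotated start lies 63 bases from the upstream RefSeq start of HSP90AA1, whose window holds no heat shock motif. HSP90AA1-002, of 732 codons, starts 147 bases from the downstream start, whose window is printed above, and measured 115, 122 and 141 FPKM in control and 115, 114 and 112 FPKM in target libraries. Control replicate 3 was also the highest for this transcript, and the groups were apart only in the narrow sense that the lowest control, at 115 FPKM, lay just above the highest target library. In HSPD1, 2 transcripts with the same coding length of 573 codons traded places in control replicate 1: HSPD1-001 measured 115 FPKM there and 2.83 to 7.97 FPKM elsewhere, and HSPD1-201 measured 32.9 FPKM there and 131 to 139 FPKM elsewhere. The HSPD1 gene value was 86.0 FPKM in that library and 75.7 to 78.5 FPKM in the others. The DNAJB6 transcripts also varied within groups: the long form DNAJB6-001, of 326 codons, measured 8.77, 23.1 and 15.7 FPKM in control and 8.88, 8.46 and 16.9 FPKM in target libraries, with overlap (adjusted p of 0.851 by limma). How the quantification divided reads between transcripts was not tested.

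**Figure D4:**
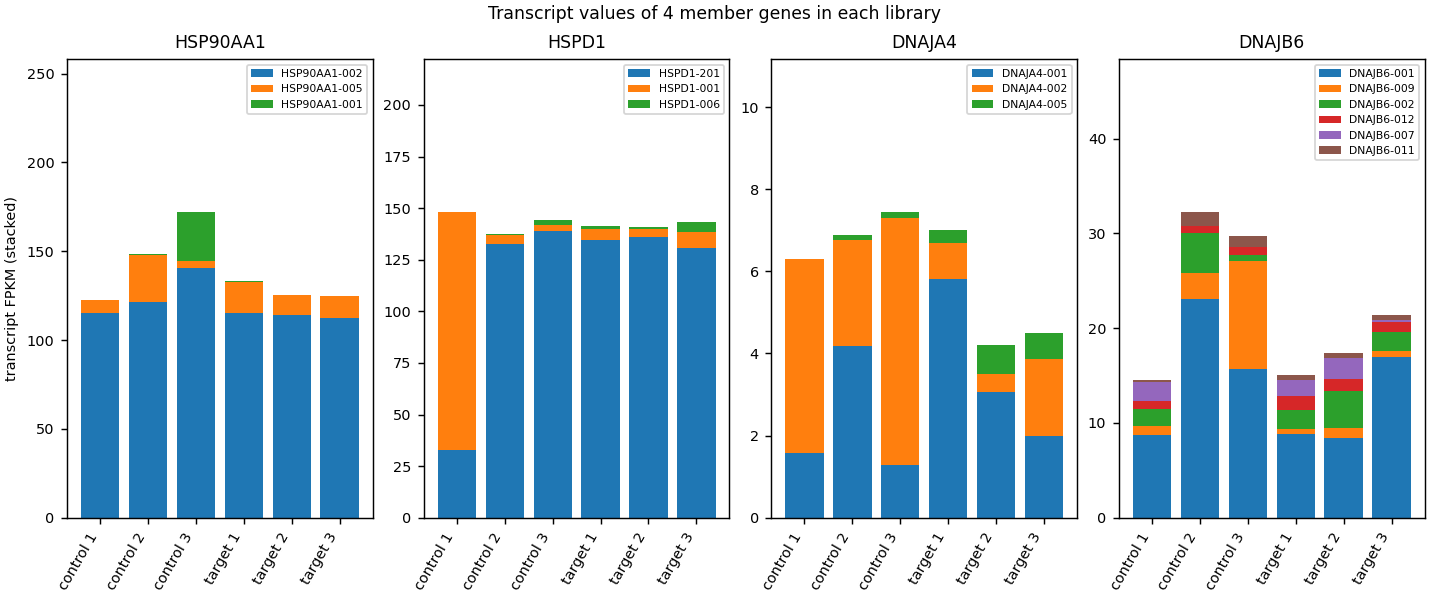
Stacked transcript FPKM (y axis) of HSP90AA1, HSPD1, DNAJA4 and DNAJB6 in the 3 control and 3 target libraries, 1 colour per transcript. HSP90AA1-001 appears in control replicate 3, HSPD1-001 leads in control replicate 1, and DNAJA4-002 is smaller in the target libraries.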

How the data were processed

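RNA-seq of 6 MKN45 libraries (3 with the target shRNA, 3 with the control) was used, grouped by sample title. RNA came from a Trizol extraction and libraries from an Illumina procedure, per the labels' protocols. Expression was deposited by the authors as FPKM, in 1 table of genes and 1 of transcripts. All listed features were of the protein-coding type. The higher of the 2 group means of a listed gene was never under 0.50 FPKM, so absence from the list may mean a low level. Per the submitters' processing notes the build is hg19 (GRCh37). Which aligner and quantifier were run, and whether strand was kept, is not given in the sources used here. Depth is unknown: among 2410 low genes at most 3 shared 1 ratio between libraries, so no step of whole reads was seen.

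Values were analysed as log2(FPKM + 1) with limma 3.58.1 (trend) in R 4.3.3 over all 10675 genes or 20890 transcripts with at least 1 FPKM in at least 3 libraries, with Benjamini-Hochberg adjustment at 0.05. Signed changes are target minus control, ± is an SD over 3 libraries, and intervals are unadjusted. Promoters and coding lengths come from RefSeq and GENCODE 29 (both GRCh38), read with Python 3.11.15 and pandas 2.3.3. Fits were tested on simulated data.

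Members, lists and tests were chosen with earlier results of these data known. Genes named were HSPA1A, HSPA1B, HSPA5 and HSP90B1 and, per family, the 3 of highest mean, that of smallest p and the largest changes in each direction with a mean of at least 2 FPKM, then 4 partners of smallest p. Others named were chosen after their values were seen. Alternatives covered pseudocounts, filters, scaling, limma settings, the replicate number as a block and leaving out each library.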

Additional observations from a re-analysis of the deposited data

How the results depend on the processing

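In all 15 other settings 0 members and 0 transcripts of members passed, higher or lower. The number of all genes passing went from 80 to 52 with a mean of at least 5 FPKM, where fewer genes were tested, to 10 with the replicate number as a block and to between 23 and 42 without 1 library. In the partner list 0 to 1 gene was lower without 1 library: PTGES3, without target replicate 1 (log2 change -0.69, adjusted p of 0.0259 by limma), and otherwise none passed. The replicate numbers were not shown to pair libraries: deviations of same-numbered libraries correlated at -0.013, 0.019 and 0.066, and not every library correlated best with its own number. With the replicate block, 0 members passed, as without it, and the smallest adjusted p of a member was 0.238 (DNAJB9). Over the other settings the smallest was 0.0804 to 0.233. The count of members at an unadjusted p under 0.05 by limma, 16 of 64 in the main fit, also depended on the setting. It was 11 with median rescaling, 9 with quantile normalization and 9 to 13 without 1 library. The share of all tested genes past that limit in these settings is not given here. These counts therefore cannot be read as particular to the members. Among 37 genes named by rule, 542 of 552 log2 changes kept their direction. The 10 that turned were small: DNAJB2 (-0.0072 by median rescaling, -0.0050 by quantile normalization), DNAJC3 (-0.010 by median rescaling), HSP90AB1 (0.025 by quantile normalization), and, without 1 library, BAG3 (-0.077 to 0.00068), DNAJB2 (-0.014 to 0.052), HSPB7 (-0.11 to 0.0012), HSPD1 (-0.084 to 0.0064) and HSPE1 (-0.026 to 0.13). The cause was not tested. With 3 libraries a group and unknown depth, small changes may be missed, so a p above the threshold does not show that levels were equal.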

Other observations

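Several members had 1 library far from the rest. HSPA2, an HSP70 of male germ cells, measured 0.33, 0.33 and 0.24 FPKM in control and 0.28, 2.10 and 0.37 FPKM in target libraries, with target replicate 2 alone above 1 FPKM. No listed gene had a higher group mean under 0.50 FPKM, so HSPA2 may be listed only through that library. DNAJC9, a histone cochaperone, measured 8.65, 9.72 and 8.33 FPKM in control and 8.63, 15.2 and 8.82 FPKM in target libraries, and target replicate 2 was again the high one. A transcript of the HSP110-type gene HSPA4 measured 10.3 FPKM in target replicate 2 and is listed at 0 in the other 5 libraries. HSPE1-MOB4, a readthrough model, measured 0.68, 1.70 and 1.46 FPKM in control libraries, and is listed at 0 in target replicate 1 beside 0.64 and 1.68 FPKM. Of the partners, PTGES3 (p23, a cochaperone of HSP90) measured 101, 105 and 94.0 FPKM in control and 107, 62.1 and 60.5 FPKM in target libraries. Target replicate 1 thus lay with the controls.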
